A study of Mus musculus with 2 samples.

Results

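Reference genes are transcripts whose amount is taken as steady, so that other genes can be measured against them. The 9 described here are Actb, Gapdh, Hprt, Tbp, Ppia, B2m, Gusb, Ywhaz and Eef1a1. Their N6-methyladenosine (m6A) peaks were taken from a peak list labelled as the uterus of mice on day 4 of gestation. A peak was counted for a gene when its summit lay inside the gene's RefSeq span (GRCm38.p6, which is mm10). By this rule 13 of 26584 peaks fell in 6 of the 9 genes, and Gapdh, Hprt and Ppia had none.

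The samples were 1 immunoprecipitated (IP) and 1 input library of uterine polyA RNA from wild-type females on gestational day 4. The females were mated at 6 to 8 weeks of age, with plug day as day 1, and no other allele or agent is named in the labels. The cell type is labelled as mixed, and whether animals were pooled is not given in the sources used here. There was no replicate, so nothing below has a test across samples.

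In this assay, methylated RNA immunoprecipitation sequencing, RNA fragments bound by an antibody against m6A are sequenced beside unselected fragments. The mark is a methyl group on adenosines inside the mRNA chain, put on by a nuclear methyltransferase complex and removed by demethylases. In many tissues it lies mostly in long internal exons and near stop codons. Proteins that read it can change how long a transcript lasts and how it is translated.

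The peak names, 26584 of 26584, begin with D8NegIP-Posinput, whereas the labels say day 4, and the labels do not explain the parts of that name. Whether the list belongs to the labelled IP, and whether the labelled input served as its background, is therefore unsettled. Each peak has a fold enrichment, the ratio of IP pileup plus 1 to background plus 1 at the summit, as the authors' peak caller gave it. The pileup and background, in fragments on the IP library's scale, were solved from that ratio and the peak's p-value. Across the list the median pileup was 18 fragments (range 3 to 361) and the median fold enrichment 7.14. Among markers of the tissue's cell types, peaks lay in 6 of 6 stromal, 4 of 5 epithelial, 3 of 3 smooth muscle and 2 of 2 endothelial markers. Leukocyte markers had them in 2 of 3 cases, Ptprc being the exception, and red blood cell (0 of 2) and preimplantation embryo (0 of 3) markers had none. Over all protein-coding genes the share was 44.8%. A peak needs methylation as well as expression, and longer spans hold more of them, so these counts check the tissue label only weakly.

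B2m was the reference gene with a peak at its transcription start. That peak began on the first transcribed base, so the RefSeq sequence around the start (GRCm38.p6, plus strand, chr2:122147437-122147716) is shown. Small letters are the 250 bases before the start and capitals the first 30 transcribed bases, all of them inside the peak.
B2m: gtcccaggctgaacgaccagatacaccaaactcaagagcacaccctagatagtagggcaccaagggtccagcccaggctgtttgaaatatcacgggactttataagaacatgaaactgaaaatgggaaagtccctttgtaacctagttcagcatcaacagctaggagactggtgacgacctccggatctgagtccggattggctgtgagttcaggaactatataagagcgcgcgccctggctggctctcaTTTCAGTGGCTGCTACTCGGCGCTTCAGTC

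The letters TATAA, the core of the TATA box, began 150 and 30 bases before the B2m start on the gene's strand and 151 bases before it on the other strand, where that match overlaps the first. Of the 32851 start windows of 300 bases in the RefSeq table, 24.9% hold TATAA on either strand. GGACT, a common form of the m6A consensus, began 156 bases before the start on the gene's strand and 122 and 60 bases before it on the other. GGACT lies in 45.5% of the windows on either strand. The 50 transcribed bases of the B2m window hold no GGACT on either strand, and 10.4% of windows hold it there. The peak is 201 bp wide with its summit 96 bp after the start, so most of it, the summit included, was not searched. These are matches of letters in a window of which only the transcribed part lies under the peak. Peaks touched 5.38% of all windows. The windows listed for Gapdh, Hprt, Tbp, Ppia, Gusb and Eef1a1 were not touched, and the table lists none for Actb and Ywhaz.

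**Figure D1:**
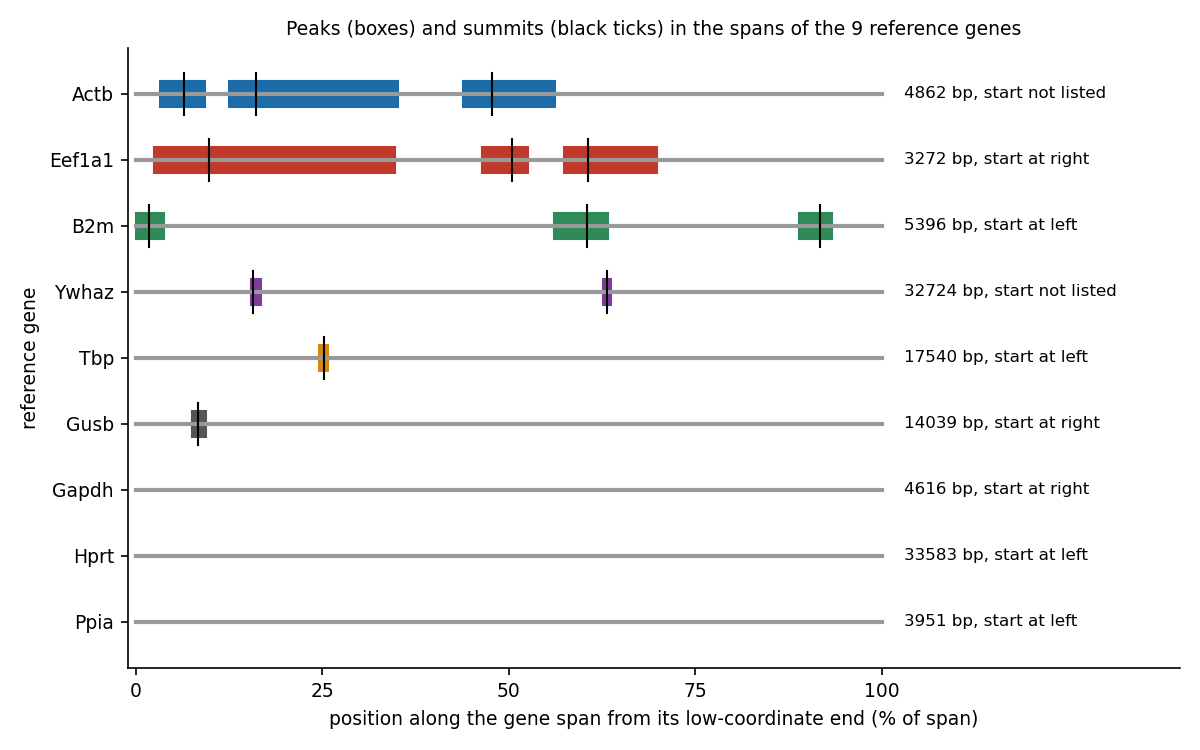
Peaks in the spans of the 9 reference genes, drawn from the low-coordinate end (0%) to the high-coordinate end (100%) of each span. Boxes are peaks, black ticks are summits, and the text at right gives the span length and the side of the listed start. Eef1a1 and Actb have 51.1% and 41.2% of their spans under peaks, and Gapdh, Hprt and Ppia have no peak.

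Actb, which encodes the cytoplasmic actin of the cell's filament network, carried 3 peaks over 2003 bp, or 41.2% of its span of 4862 bp (chromosome 5, 142903115 to 142907976). The peak nearest the middle of the span, at 142905246 to 142905850, had the highest fold enrichment, 7.73 (6.51 to 9.12), from 139 IP fragments over a background of 17.1. A broad peak of 1106 bp at 142903722 to 142904827 had 7.16 (5.94 to 8.55) from 119 fragments. These 2 intervals overlap. Bracketed ranges after fold enrichments are 95% intervals, exact Poisson limits for the pileup at a fixed background, and cover counting error only. Overlap of 2 intervals is not a test, and peaks with overlapping intervals may still differ. The peak nearest the low-coordinate end, 142903273 to 142903564, had 3.27 (2.47 to 4.23) from 55 fragments, and its interval lies below those of the others. Its summit also falls in the span of Gm38733, a long non-coding RNA gene. Backgrounds at the 3 Actb summits were alike, 15.8 to 17.1 fragments, so the lower fold enrichment went with a lower pileup.

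Eef1a1, the elongation factor that brings aminoacyl-tRNA to the ribosome, also carried 3 peaks, over 51.1% of its span of 3272 bp (chromosome 9, 78478453 to 78481724, minus strand). The broadest, 1062 bp at 78478531 to 78479592, had its summit 321 bp from the far end of the span. It had a fold enrichment of 5.56 (4.72 to 6.50) from 153 fragments over a background of 26.7. Among the strongest peaks of the 9822 protein-coding genes that had any, no background was higher. Toward the start, peaks at 78479973 to 78480173 and 78480332 to 78480740 had 3.52 (2.80 to 4.39) and 3.84 (3.04 to 4.80), and their intervals overlap. The interval of the first of these lies below that of the broad peak, while that of the second reaches 4.80 and so overlaps it. The summits of the pair stood 334 bp apart, with 158 bp between the peaks.

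B2m encodes beta-2-microglobulin, the light chain of MHC class I molecules, and had 3 peaks in a span of 5396 bp (chromosome 2, 122147687 to 122153082, plus strand). The strongest, at 122150710 to 122151102, lay 3265 bp after the start with a fold enrichment of 8.80 (7.09 to 10.8) from 89 fragments. The peak near the far end, 122152489 to 122152722, with its summit 444 bp from that end, had 6.32 (4.62 to 8.47) from 43 fragments. The start peak shown above, 122147687 to 122147887, had its summit 96 bp after the start and 5.56 (3.01 to 9.59) from only 11 fragments over a background of 1.16. The 3 intervals overlap, and the order of these peaks was not tested. Backgrounds differed more, with 1.16 at the start, 9.23 at the strongest peak and 5.96 near the far end. The whole B2m span lies inside the wider span of Patl2, a protein-coding gene, so none of the 3 summits belongs to 1 gene alone.

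Ywhaz, which encodes the zeta form of the 14-3-3 adaptor proteins that bind phosphorylated partners, had the highest deposited fold enrichment of the 9 genes. With no 1 added to pileup and background its ratio was 16.5, and that of Gusb, 19.3, was higher. Its span of 32724 bp (chromosome 15, 36770261 to 36802984) held 2 peaks 15005 bp apart. The peak at 36790751 to 36791126 had 14.1 (11.4 to 17.3) from 92 fragments over a background of 5.57. The peak at 36775300 to 36775745 had 3.81 (2.56 to 5.49) from 27 fragments over a background of 6.34. The 2 intervals do not overlap although the backgrounds are close, and no other gene of the 9 had peaks so far apart in fold enrichment.

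Tbp and Gusb had 1 peak each, of 207 and 255 bp, beside a median width of 322 bp over all peaks. Their pileups, 19 and 20 fragments, were near the median of all peaks, 18. Tbp encodes the TATA-binding protein, which starts assembly of the transcription machinery. Its peak on chromosome 17 at 15504189 to 15504395 lay 4421 bp after the start of a span of 17540 bp (plus strand) and had 5.72 (3.55 to 8.77) from 19 fragments. Gusb encodes the lysosomal enzyme beta-glucuronidase. Its peak on chromosome 5 at 129990071 to 129990325 had its summit 1176 bp from the far end of a span of 14039 bp (minus strand). The fold enrichment was 10.3 (6.50 to 15.7) from 20 fragments over a background of 1.03. The table of genes gives no exons, so whether any of the 13 summits lies in an exon, an intron or an untranslated region was not tested.

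**Figure D2:**
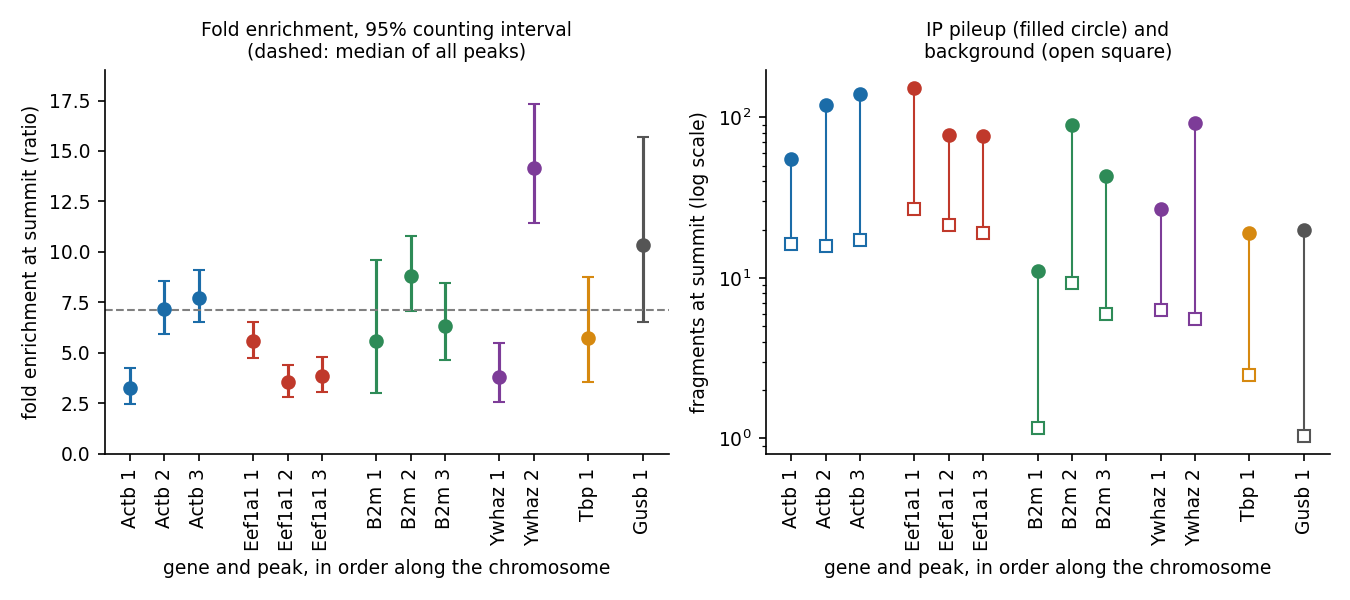
Left, fold enrichment (ratio) of the 13 peaks with 95% counting intervals, by gene and in order along the chromosome. The dashed line is the median of all 26584 peaks, 7.14, and 8 of the 13 peaks lie below it. Right, IP pileup (filled circles) and background (open squares) at the same summits, in fragments on a log axis. Actb and Eef1a1 have backgrounds of 15.8 to 26.7 and Gusb has 1.03.

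Gapdh, Hprt and Ppia had no peak in or at their spans. Gapdh encodes a glycolytic enzyme, Hprt the enzyme that salvages hypoxanthine and guanine, and Ppia cyclophilin A, a prolyl isomerase. The nearest peak to the Gapdh span (4616 bp, chromosome 6, 125161852 to 125166467) was 17263 bp away, in Nop2. That nearest to Ppia (3951 bp, chromosome 11, 6415867 to 6419817) was 10451 bp away, in Zmiz2, and that nearest to Hprt (33583 bp, chromosome X, 52988078 to 53021660) was 33363 bp away, in Phf6. The peak list holds no read depth outside peaks, so a missing peak does not tell a transcript without m6A from one too rare to be called.

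Processed copies of reference genes are scattered through the genome and can share reads with the source gene. Only pseudogenes with a RefSeq symbol or synonym that begins with the gene's name followed by -ps were counted. By this rule there were 60 for Ppia, 3 for Gapdh, 2 for Eef1a1 and 1 for Actb. Copies under other names were not looked at, so these are not full counts of copies. Summits fell in 4 of the Ppia copies so named and in none of the others so named. The share over all pseudogenes was not computed. The fold enrichment was 8.24 (4.57 to 13.9) in Gm13493 and 5.06 (2.31 to 10.2) in Gm14267, from 12 and 6 fragments. The summit in Gm53055, with 4.16 (2.25 to 7.17), also lay in the spans of Gnaq and E030024N20Rik, and that in Gm6061, with 10.5 (6.61 to 15.9), in the span of Gclm. How reads with several matches were treated is not given in the sources used here, and its part in the missing Ppia and Gapdh peaks was not tested.

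Set against all genes, 6 of 9 reference genes had a peak, where 44.8% of 21900 protein-coding genes did. Split by span, 3 of the 5 short genes (3272 to 5396 bp) had a peak, beside 33.6% of the 1653 protein-coding genes of that length. Of the 4 longer ones (14039 to 33583 bp) 3 had a peak, beside 48.5% of 5258. Counting only summits in the span of exactly 1 gene removes B2m and leaves 5 of 9, beside 40.8% of protein-coding genes, and requiring −log10 q of at least 5 leaves 6 of 9, beside 41.3%. Such counts over 9 genes carry no test and do not set the group apart. Actb, B2m and Eef1a1 had 3 peaks each, and 14.5% of protein-coding genes had at least 3. With summits in exactly 1 gene, Eef1a1 kept 3, Actb 2 and B2m none. The share of protein-coding genes with at least 3 such summits was not computed.

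The reference genes spread widely in fold enrichment, and most stood at high backgrounds. Over the 6 genes the median of the highest fold enrichment was 8.27, beside 9.36 (quartiles 6.65 and 13.1) over the 9822 protein-coding genes with a peak. With no 1 added to pileup and background these medians were 8.88 and 17.3, so the distance between the medians depends on that added 1. The median background at the strongest peak was 7.40 fragments in the reference genes, beside 1.54 in all protein-coding genes with a peak. The median pileup was 90.5 fragments, beside 23. In RNA of a mixed tissue, a high background does not tell more expressing cells from more RNA per cell. From the top, the background of Eef1a1 ranked 1, that of Actb 10, that of B2m 86 and that of Ywhaz 436 of 9822. Tbp (2.50) lay at percentile 71.9 and Gusb (1.03) at percentile 36.7 of backgrounds. By fold enrichment the percentiles were 79.6 for Ywhaz, 58.1 for Gusb, 45.5 for B2m, 36.1 for Actb, 15.5 for Tbp and 13.7 for Eef1a1. The intervals of neighbours in this order overlap, as those of B2m and Actb do, and that of Ywhaz clears those of B2m, Actb, Tbp and Eef1a1 but not that of Gusb.

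The background stands in the divisor of the fold enrichment, so each gene was also placed among protein-coding genes of like background. Ywhaz exceeded 85.7% of the 505 genes with a background of 5 to 10 fragments, whose median was 8.88, and B2m exceeded 49.5% of them. Actb exceeded 60.9% of the 69 genes with 10 to 20 fragments, whose median was 6.36. Only 6 genes, Eef1a1 among them, had 20 or more. Eef1a1, at 5.56, stood beside their median of 5.51, which its own value helps to set. Gusb exceeded 53.6% of 2544 genes with 1 to 2 fragments. Tbp exceeded 13.6% of 3110 genes with 2 to 5 fragments, whose median was 10.6. Eef1a1 thus stood in the middle of the few genes of its class, and Tbp was the lowest placed of the 6 within its own. The lowest fold enrichment called at all was 1.76 among peaks over a background of at least 20, beside 3.06 among those under 1.

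**Figure D3:**
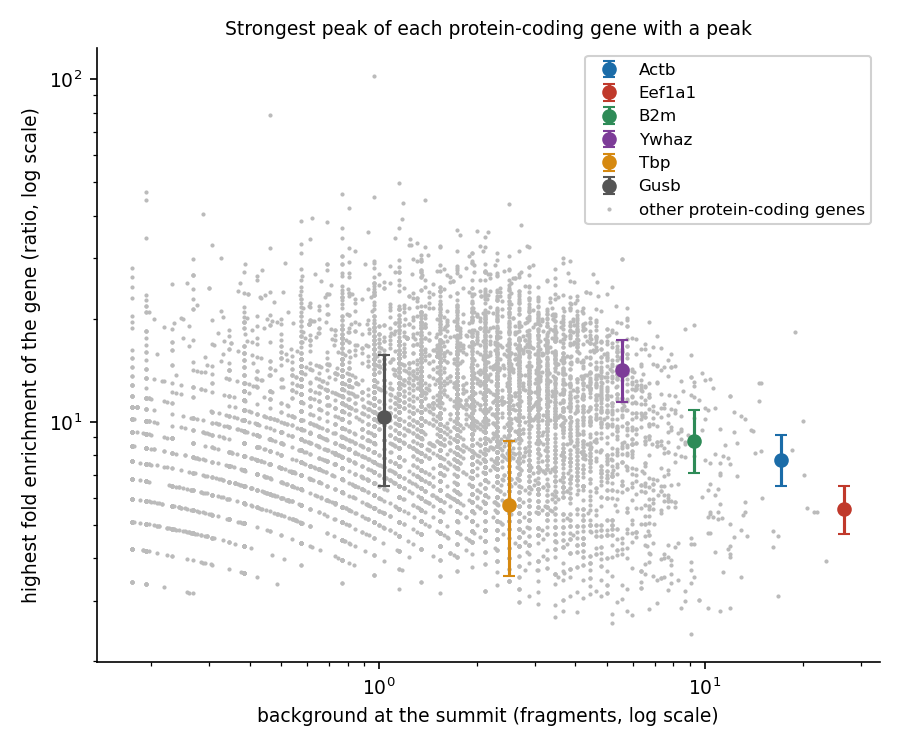
Highest fold enrichment of each protein-coding gene with a peak (ratio, log axis) against the background at that summit (fragments, log axis). Coloured points are reference genes with 95% counting intervals, and grey points are the other protein-coding genes. Eef1a1 lies at the right edge with a background of 26.7, and Ywhaz, at 14.1, lies highest of the 6 on this scale, though below Gusb when no 1 is added to pileup and background (16.5 and 19.3).

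The gene most like a reference gene was taken as the one whose strongest peak, in the span of exactly 1 gene, lay nearest in log2 fold enrichment and log2 background, among 8652 genes in this 1 library pair. For Ywhaz it was Ptma, which encodes prothymosin alpha, at a distance of 0.043, and for B2m it was Clu, which encodes the chaperone clusterin, at 0.083. For Eef1a1 it was Des, the gene of the muscle intermediate filament desmin, at 0.27. Tbp shared its exact values with 5 genes, Gm2007 among them, and Epb41l1 was 1 of 3 genes at the least distance, 0.0060, from Gusb, so these likenesses single out no gene.

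Relatives of the reference genes were looked at family by family. The lists are short, and counts over them carry no test. In the actin family 4 of the 5 other genes had a peak, beside 44.8% of all protein-coding genes. Actg1, the second cytoplasmic actin, stood at 6.996 (5.60 to 8.64) over a background of 11.1, an interval that overlaps that of Actb. Actg2, the smooth muscle gamma actin, had 12.5 (9.76 to 15.9), above the interval of Actb, and Acta2 had 4.63 (3.60 to 5.88), below it. Acta1, the skeletal muscle actin, had 4.86 (3.33 to 6.87), and Actc1, the cardiac actin, had no peak. Actin coding sequences are alike, and whether reads were shared among these genes was not tested.

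All 6 other 14-3-3 genes had a peak, with a median of their highest fold enrichments of 11.6. Ywhag led with 20.1 (16.5 to 24.2), an interval that overlaps the 11.4 to 17.3 of Ywhaz. Ywhah followed at 14.6 (9.38 to 21.8) and Ywhaq at 12.9 (9.74 to 16.7), and Sfn was lowest at 9.29 (5.02 to 16.0). All 7 members of this family therefore carried a peak, beside 44.8% of protein-coding genes.

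In translation elongation 4 of 7 other genes had a peak, beside 44.8% of all protein-coding genes. Eef2, the translocation factor, had 4 peaks with 6.99 (5.91 to 8.20) at the strongest, over a background of 20.2 that is also among the highest. Eef1d and Eef1g, subunits of the exchange factor that recharges Eef1a1, had 9.46 (7.30 to 12.1) and 5.03 (3.89 to 6.40). Eef2k, the kinase that inhibits Eef2, had 4.18 (2.07 to 7.78) from 8 fragments at a summit shared with Gm15774. Eef1b2, Eef1e1 and Eef1a2, the muscle and nerve form, had none.

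Among genes of MHC class I presentation 8 of 9 others had a peak, beside 44.8% of all protein-coding genes. The heavy chain gene H2-D1 stood at 27.7 (21.4 to 35.3) and the other heavy chain gene, H2-K1, at 4.49 (2.14 to 8.66) from 7 fragments. Reads of these polymorphic, closely related genes may have been assigned to either, which was not tested. The chaperone gene Calr had 11.5 (9.91 to 13.3) over a background of 14.6, and the peptide transporter genes Tap1 and Tap2 had 6.22 (3.28 to 11.0) and 9.04 (5.31 to 14.6). Tapbp, the gene of tapasin, had none.

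Of 15 other genes of TFIID and the TBP family, 10 had a peak, beside 44.8% of all protein-coding genes. Taf7 was counted only through summits shared with other genes. Values ran from 3.79 (2.15 to 6.29) in Taf1, the largest subunit, to 16.7 (10.9 to 24.5) in Taf2. Tbpl1, a TBP relative, had 6.25 (3.84 to 9.69), an interval that overlaps that of Tbp, and Tbpl2 had no peak. Of 11 other lysosomal glycosidase genes, 9 had a peak, beside the same 44.8%, and the summit in Idua was shared with Slc26a1. The highest value was 15.2 (11.1 to 20.3) in Naglu, which like Gusb degrades glycosaminoglycans. The intervals of Naglu and Gusb overlap.

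The families of the 3 genes without a peak follow. Over all protein-coding genes the share with a peak was 44.8%. In glycolysis 7 of 17 other genes had a peak (41.2%). Both the upper and the lower part of the pathway held genes with a peak and genes without. In its upper part the hexokinase genes Hk1 and Hk2 had 13.6 (8.81 to 20.1) and 8.36 (5.06 to 13.1), the isomerase gene Gpi1 4.74 (3.56 to 6.18) and the aldolase gene Aldoa the lowest value, 3.53 (2.40 to 5.02). The phosphofructokinase genes Pfkl, Pfkm and Pfkp and the aldolase gene Aldoc had none. In the lower part Ldhb, a lactate dehydrogenase gene, had 11.3 (7.03 to 17.3) and Gapdhs, the sperm form of Gapdh, 5.12 (2.84 to 8.65), while Tpi1, Pgk1, Pgam1, Eno1, Pkm and Ldha had none. The highest value of the list, 23.3 (18.2 to 29.3) in the enolase gene Eno3, lay at a summit shared with Pfn1. None of the 3 Eno3 summits lay in the span of exactly 1 gene. Counting only such summits leaves Ldhb and Gapdhs as the lower-part genes with a peak. In purine salvage and nucleotide synthesis 3 of 9 other genes had a peak (33.3%). Aprt, the adenine counterpart of Hprt, had 7.06 (4.49 to 10.6) and Pnp 7.52 (5.57 to 9.95). Ppat had 15.3 (10.5 to 21.5) at a summit shared with LOC115486295. Of 12 other cyclophilin genes 7 had a peak (58.3%), though the summits in Ppif and Ppil3 were shared with other genes. Values were highest in the large nuclear forms Ppig, 19.6 (15.8 to 24.0), and Nktr, 14.2 (11.4 to 17.5). The lowest was in Ppib, 4.33 (2.55 to 6.97), the form of the endoplasmic reticulum.

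**Figure D4:**
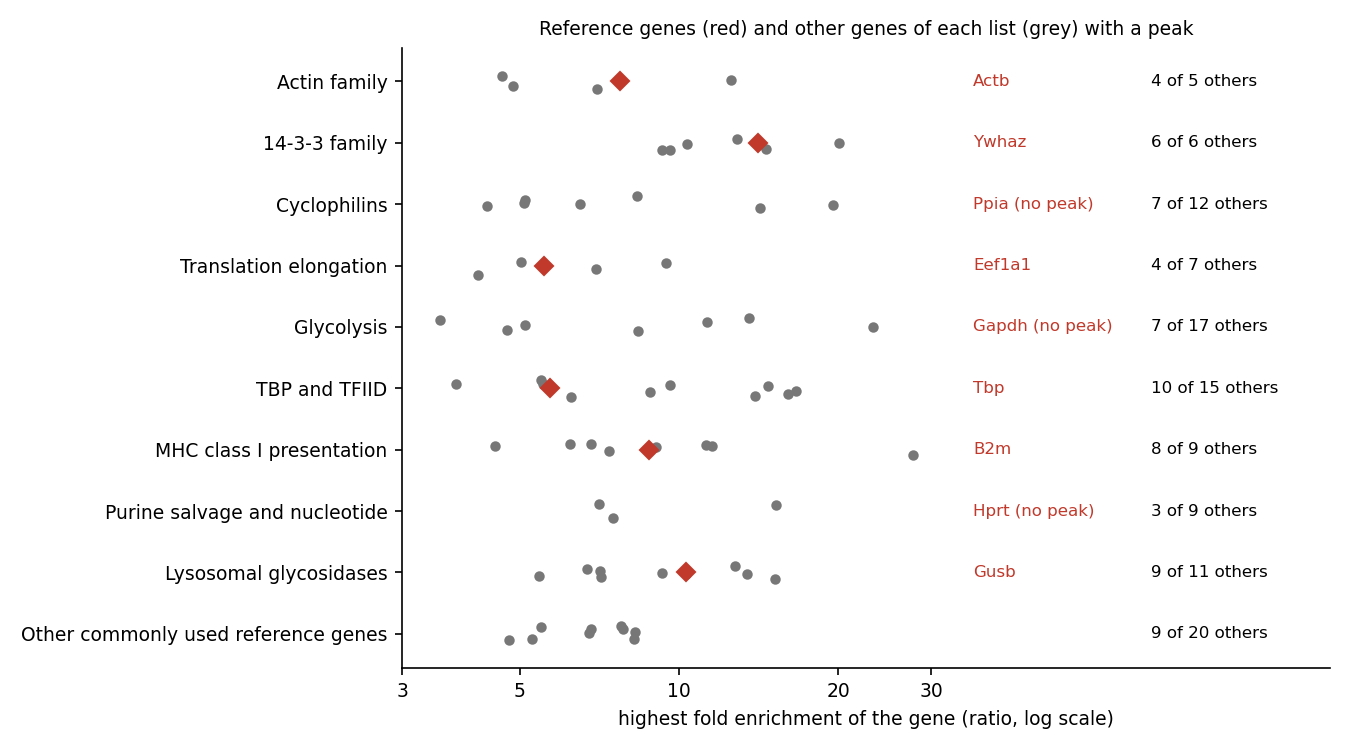
Highest fold enrichment (ratio, log axis) of each gene with a peak, by list. Red diamonds are the reference genes, named at right, and grey points are the other genes, whose count with a peak is given at right. Ppia, Gapdh and Hprt have no diamond because they had no peak, and all 6 other 14-3-3 genes had one.

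Other commonly used reference genes had a peak in 9 of 20 cases (45%), near the 44.8% of all protein-coding genes. Their median highest fold enrichment was 6.82 and their median background was 10.6. The ubiquitin gene Ubb had 8.23 (6.88 to 9.76), the tubulin gene Tubb5 7.86 (6.40 to 9.55), and the ribosomal protein genes Rplp0 and Rpl13a 5.27 (4.04 to 6.76) and 4.78 (3.81 to 5.93). The chaperone gene Canx had 6.82 (5.14 to 8.88), the RNA-binding protein gene Nono 6.77 (4.35 to 10.1) and the haem synthesis gene Alas1 5.49 (3.17 to 8.97). Rpl19 had 7.76 (3.97 to 14.04) from 9 fragments at a summit shared with Cacnb1. Genes without a peak included Sdha, Pgk1, Tfrc, Polr2a, Rps18, Cyc1, Atp5b, Ipo8, Ldha and G6pdx, as well as Gapdh, Hprt and Ppia.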

How the data were processed

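The deposited data are 1 peak list. The submitters' processing notes name mm10, MACS3 3.0.0a7 and HISAT2 2.2.1. Their options, and any pooling, are not stated there. The authors deposited for each peak a fold enrichment (a ratio), a p-value and a q-value as −log10, and a score equal to 10 times −log10 q to within 1. The lowest −log10 q was 1.31. Pileup and background were solved from the ratio and the Poisson p-value. The solved pileup met the deposited p-value within 0.05 of the step between whole pileups in all 26584 peaks. The solver was tested on simulated data. Amplified fragments are not independent molecules, so intervals cover counting error only. Genes came from a RefSeq table of 49997 genes without exons. Gene starts and strands came from the RefSeq start windows. Coordinates count from 1.

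The members and gene lists were chosen with earlier results of these data known. Named genes are the 9 members, the genes of their families and of the list of other reference genes, and the nearest gene by fold enrichment and background. For some families, only part of the genes with a peak are named, as examples chosen with their values seen. A few genes of these lists are not reported here. The software was scipy 1.17.1, pandas 2.3.3, statsmodels 0.14.6, matplotlib 3.10.9 and numpy 2.4.6 under Python 3.11.15.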

Additional observations from a re-analysis of the deposited data

How the results depend on the processing

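The number of reference genes with a peak was 6 with a minimum of 5 for −log10 q or of 4 for the fold enrichment, with any or 50% overlap of peak and span in place of the summit, and with spans extended by 1000 bp. It was 5 when a summit had to lie in the span of exactly 1 gene, because B2m lies inside Patl2. The number of peaks was 13 under these settings except for 9 with a fold enrichment of at least 4 and 9 with summits in 1 gene only. Of protein-coding genes, the share that had a peak was 40.8% with summits in exactly 1 gene and 41.3% with −log10 q of at least 5, against 44.8%. The median of the reference genes was 6.74 with each gene's median peak in place of its highest. With no 1 added to pileup and background it was 8.88, beside 17.3 over all protein-coding genes with a peak, so the distance between these medians depends on the added 1. The Gusb value then was 19.3, above the 16.5 of Ywhaz, since its background is near 1, while those of Actb, B2m, Eef1a1, Tbp and Ywhaz stayed inside their intervals. No paired analysis was possible because there is 1 library of each kind. Pileups of 11 to 20 fragments limit the start peak of B2m and the peaks of Tbp and Gusb.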
